A study of Mus musculus with 16 samples.

Results

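Ribosome biogenesis factors are the proteins that transcribe, modify, cleave and fold ribosomal RNA in the nucleolus and assemble it into the small and large ribosomal subunits. Here 47 such genes were described, chosen by name from a list of well-known factors with earlier results of these data known. Counts set beside the shares of all genes therefore describe the list and do not test it. All 47 were present in the depth-normalized table with a mean of at least 10, among 12469 genes tested and 17159 genes in the table. They comprised 4 RNA polymerase I subunits, 3 box C/D proteins, 4 box H/ACA proteins, 17 small subunit factors, 14 large subunit factors and 5 other nucleolar proteins. The RNA came from CD8+ T cells of C57BL/6 mice. All cells had been activated with antibodies to CD3 and CD28 for 2 days before they were moved for 36 h into 1 of 4 media. These were supernatant taken from the mouse melanoma line B16F10 with methionine added (supplemented supernatant), the supernatant without that addition, fresh medium lacking methionine (methionine-free fresh medium), and fresh medium containing it (complete fresh medium). Each medium had 4 libraries, and the labels do not say whether these came from separate animals or cultures, so the p-values measure a spread between libraries that may be technical.

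Making a ribosome begins when RNA polymerase I transcribes the ribosomal DNA into a long precursor. Box C/D particles then methylate ribose sugars of that precursor and box H/ACA particles convert uridines to pseudouridine, each guided by a small nucleolar RNA (snoRNA). The small subunit processome and the large subunit assembly factors cut and fold the pieces, and in lymphocytes this machinery is switched on when a resting cell starts to grow and divide. Methionine is an essential amino acid that supplies protein synthesis and, through S-adenosylmethionine, the methyl groups used by enzymes such as the box C/D methyltransferase.

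The transcription factor Myc, with its partner Max, binds the E-box letters CACGTG, and ribosome biogenesis genes are a textbook group of its targets. The stretches of 60 bases that hold an E-box upstream of the RefSeq start are shown for the 3 listed genes that had one there, because all 3 genes were called higher on methionine removal below. They come from the RefSeq promoter table on build GRCm38.p6, are printed 5′ to 3′ on the gene's strand, and the capitals mark the E-box. Imp4 lies at chr1:34439681-34439740 on the plus strand, Nop2 at chr6:125131796-125131855 on the plus strand and Utp18 at chr11:93885767-93885826 on the minus strand. The first base of the E-box was at -121 in Imp4, at -60 in Nop2 and at -20 in Utp18, counted from the start.
Imp4: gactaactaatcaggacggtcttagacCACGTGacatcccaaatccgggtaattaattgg
Nop2: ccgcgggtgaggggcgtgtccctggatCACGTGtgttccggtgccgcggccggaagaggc
Utp18: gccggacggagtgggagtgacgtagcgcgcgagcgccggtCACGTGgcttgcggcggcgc

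RefSeq promoter windows of 250 bases before to 50 bases after the start were matched for 41 of the 47 genes. For 31 of these, bases just after the RefSeq start were found in a GENCODE transcript of the same gene. Positions before or after the start rest on the RefSeq start. CACGTG, which reads the same on both strands, was found in a window of 9 of the 41 genes (22.0%). It was found for 11.9% of tested genes with a window and 8.09% of all 27025 genes with a window. In the other 6 genes (Pes1, Wdr43, Tsr1, Ltv1, Utp20 and Mybbp1a) it stood after the start. TATAAA, the core of a TATA box, searched on both strands, was found for 3 of 41 genes (7.32%), against 8.46% of tested genes with a window. A match describes the letters of the window and is not a measurement of binding.

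Libraries held 25.8 to 42.3 M recovered reads. The labelled cell type was checked against 6 CD8 T cell markers (Cd3d, Cd3e, Cd3g, Cd8a, Cd8b1 and Thy1), whose summed depth-normalized reads were 136327 to 145990 in supplemented supernatant, 110083 to 113049 in supernatant, 92304 to 94593 in methionine-free fresh medium and 123976 to 130441 in complete fresh medium. Summed B cell markers (5 of 5 in the table, mostly Cd79b) were 363 to 385, 731 to 858, 778 to 966 and 503 to 542 in the same order of media, with Ms4a1 and Pax5 averaging under 10. Summed myeloid markers (6 of 7) were 185 to 252, 245 to 272, 210 to 276 and 382 to 459. Summed NK cell markers (4 of 4, mostly Eomes and Klre1) were 2795 to 2914, 3131 to 3296, 2030 to 2243 and 1426 to 1559. For 3 CD4 T cell genes (Cd4, Foxp3 and Zbtb7b) the sums were 3300 to 3587, 4063 to 4555, 3941 to 4090 and 1957 to 2118. Zbtb7b held most of these sums, with a mean of 3133 reads over all libraries, against 164 for Cd4 and 159 for Foxp3. Summed melanoma markers (6 of 7) were 91.0 to 144, 231 to 257, 257 to 282 and 103 to 134, with Tyrp1 at 0 in both fresh media, Mlana at 0 in supplemented supernatant and Dct averaging under 10 in every medium. In every library the B cell, NK cell, CD4 T cell and melanoma sums were higher, and the CD8 T cell sum lower, in each medium without added methionine than in its supplemented or complete counterpart. Single genes did not all follow their sum. Cd8a averaged 37126 reads in supernatant and 34719 in supplemented supernatant, and 30627 reads in methionine-free and 24492 in complete fresh medium. Klrb1c averaged 55.3 reads in supernatant against 253 in supplemented supernatant, and 24.6 reads in methionine-free against 102 in complete fresh medium. Eomes (lower in supernatant than in supplemented supernatant), Cd4 (163 reads in methionine-free against 182 in complete fresh medium) and Tyr (37.8 against 62.2) also went against their sums in 1 pair of media. So did Cd8b1, at 21198 reads in supernatant and 21039 in supplemented supernatant. Pax5, averaging under 10, went against the B cell sum in both pairs. Among the myeloid genes, Cd68 averaged 104 reads in methionine-free against 328 in complete fresh medium, and 76.1 in supernatant against 152 in supplemented supernatant. The other myeloid genes in the table (Lyz2, Csf1r, Itgam, Cd14 and Fcgr3) averaged higher without added methionine in both pairs. Of these, Lyz2 and Csf1r averaged under 10 over all libraries. The part of these markers in the results below was not tested. Values come from bulk RNA, in which fewer cells of a type and less RNA per cell cannot be told apart.

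Compared per transcript length, as FPKM in complete fresh medium, the 47 genes ran from 6.67 for Noc3l to 1623 for Npm1, with a median of 31.5. Npm1 was followed by Fbl at 203, Ncl at 167 and Nop56 at 140 FPKM. By role, the median level was 13.8 FPKM for the RNA polymerase I subunits, 140 for the box C/D proteins, 71.9 for the box H/ACA proteins, 23.9 for the small subunit factors and 32.1 for the large subunit factors. Together the 47 genes held 1.03% ± 0.0419 of all depth-normalized reads in supplemented supernatant, 1.12% ± 0.0140 in supernatant, 1.08% ± 0.0186 in methionine-free fresh medium and 0.762% ± 0.0174 in complete fresh medium (SD, n = 4 each). The share was thus lowest in complete fresh medium, in every library. Much of it was held by the 5 other nucleolar genes, Npm1 among them, at 0.540%, 0.477%, 0.467% and 0.432% in the same order of media. Summed FPKM of the 47 genes gave another order, with 4687 ± 355, 4077 ± 225, 3938 ± 172 and 3720 ± 413 (SD, n = 4 each). There supplemented supernatant was highest, and complete and methionine-free fresh medium lay close beside their SD. Npm1 alone held 1803, 772, 766 and 1623 FPKM of these sums in the same order of media. Apart from the other nucleolar genes, which include Npm1, the summed FPKM of every role group was lowest in complete fresh medium. For the small subunit factors it was 673, 801, 769 and 477, and for the large subunit factors 692, 891, 825 and 459.

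Removing methionine from fresh medium was followed by higher RNA of most ribosome biogenesis genes. Rises and falls here and below are of values scaled to sequencing depth and do not measure RNA per cell. Of the 47, 40 rose, 4 fell (Npm1, Polr1c, Fbl and Wdr12) and 3 (Nop10, Polr1e and Wdr36) were not called, by limma at an adjusted p below 0.05. Over all tested genes 43.3% were called higher and 42.3% lower, so the 85.1% of members called higher stood beside a background in which most genes moved, in nearly equal parts up and down. The median log2 fold change was 0.73 over the members and 0.01 over all genes. At least 2-fold higher were 13 members, against 14.2% of all genes, and at least 2-fold lower was 1, against 13.5%. In 37 members every methionine-free library lay above every complete one and in 4 every one lay below, against 40.9% and 40.4% of all genes. A scaling to total reads moved the median of all genes to 0.17 and that of the members to 0.89, and its values are given below where it changed a call of a gene described. Among members called either way, it moved the value on removal by more than 1.5 times for Polr1c (-0.23), Nat10 (0.28), Ltv1 (0.32), Bop1 (0.45) and Pes1 (0.23).

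**Figure D1:**
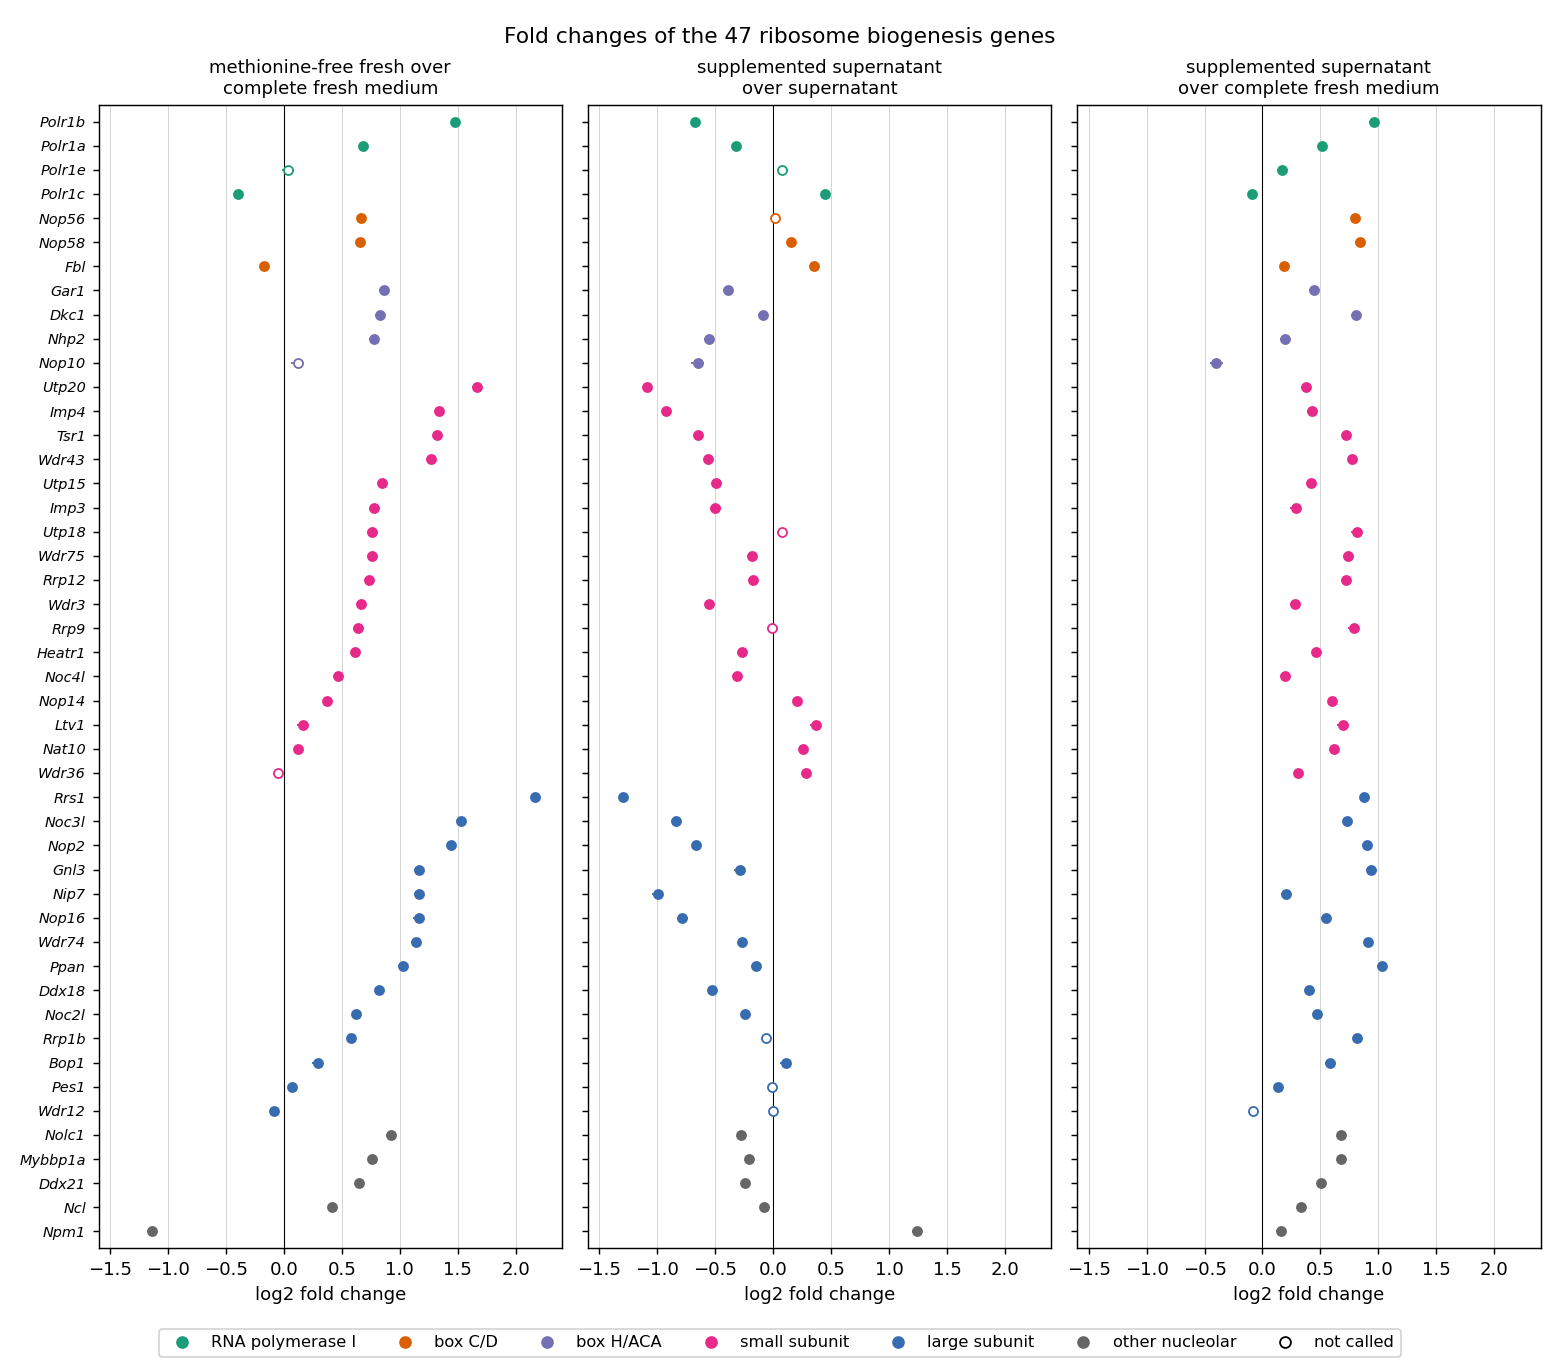
Log2 fold change (horizontal axis) of each of the 47 genes (vertical axis, grouped and coloured by role) in 3 comparisons of media, with filled points for genes called at an adjusted p below 0.05 and open points for genes not called. In the left panel 40 of 47 genes are called higher without methionine, in the middle panel 31 are called lower after methionine was added to supernatant, and in the right panel 44 are called higher in supplemented supernatant than in complete fresh medium.

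The RNA polymerase I subunits did not move as one. Polr1b, the second-largest catalytic subunit (chromosome 2, 129100995 to 129126594, plus strand, GRCm38), had 4426, 4333, 4477 and 4289 depth-normalized reads in methionine-free fresh medium, against 1616, 1689, 1542 and 1446 in complete fresh medium. Every library without methionine stood above every library with it, and the log2 fold change was 1.48 (SE 0.0393, adjusted p = 1.51e-26). Polr1a, the largest subunit, also rose, by 0.68. Polr1c, a subunit shared with RNA polymerase III (chromosome 17, 46243920 to 46248054, minus strand), had 1843, 1854, 1916 and 1854 reads without methionine, against 2576, 2429, 2478 and 2339 with it. Here the order was turned round with no overlap, and Polr1c fell by 0.39 (SE 0.0390, adjusted p = 4.13e-11). Polr1e, an accessory subunit, averaged 1013 ± 52.2 reads in methionine-free and 988 ± 49.3 in complete fresh medium (SD, n = 4 each), with overlapping libraries and a log2 fold change of 0.04 (adjusted p = 0.497), which became 0.20 and was called under total-read scaling.

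Among the box C/D proteins the scaffold and the enzyme moved apart. Nop56, a scaffold protein of the particle, had 13050, 13619, 13417 and 13579 reads in methionine-free fresh medium, against 8937, 8698, 8214 and 8074 in complete fresh medium. All of the first 4 values lay above the others, and Nop56 rose by 0.66 on the log2 scale (SE 0.0345, adjusted p = 2.22e-18), as did its partner Nop58 (0.66). Fbl, the fibrillarin methyltransferase that transfers the methyl group from S-adenosylmethionine, had 6273, 6231, 6596 and 6924 reads without methionine, against 7617, 7599, 6796 and 7234 with it. The highest library without methionine passed the lowest with it. Fbl fell by 0.17 (SE 0.0360, adjusted p = 7.43e-05), a call that was lost under total-read scaling (-0.01, adjusted p = 0.826). FPKM values gave -0.25 for Fbl, not called at an adjusted p of 0.435 and called with a replicate block (adjusted p = 0.0184).

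Of the box H/ACA proteins, 3 of 4 rose. Gar1, a small core protein of the pseudouridylation particle, had 2458, 2442, 2589 and 2618 reads without methionine, against 1469, 1448, 1318 and 1333 with it. The groups were far apart, at a log2 fold change of 0.86 (SE 0.0423, adjusted p = 4.28e-19). Dkc1, the pseudouridine synthase dyskerin, rose by 0.83 and Nhp2 by 0.78. Nop10, the smallest protein of the same core (chromosome 2, 112261926 to 112263269, plus strand), had 1888, 1973, 1985 and 2117 reads without methionine, against 2094, 1994, 1650 and 1640 with it. The complete libraries fell into a high and a low pair, the groups overlapped, and the log2 fold change of 0.12 was not called (SE 0.0566, adjusted p = 0.0537). Nop10 was called under total-read scaling at 0.28 and without replicate 0 of complete fresh medium at 0.18 (adjusted p = 0.0027). Leaving out any of 3 other libraries also gave a call, with an adjusted p of 0.0146 for complete replicate 1, 0.0329 for methionine-free replicate 0 and 0.0476 for supernatant replicate 1, and so did edgeR (adjusted p = 0.0423).

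The small subunit factors rose almost as a block, with 16 of 17 called higher and a median log2 fold change of 0.73. Utp20, a very large helical repeat protein of the small subunit processome (chromosome 10, 88746607 to 88826804, minus strand), had 7422, 7390, 7411 and 7303 reads without methionine, against 2295, 2461, 2190 and 2388 with it. The log2 fold change was 1.66 (SE 0.0408, adjusted p = 1.58e-27), the highest of this group. Imp4, a partner of the guide RNA that directs the early cleavages, rose by 1.34, Tsr1, a GTPase-like factor of late assembly, by 1.32 and Wdr43, a processome subunit, by 1.27. Their levels were 5452 ± 100 against 2162 ± 95.1 reads for Imp4, 6597 ± 209 against 2646 ± 106 for Tsr1 and 11684 ± 417 against 4852 ± 186 for Wdr43 (SD, n = 4 each, methionine-free against complete). At the other end stood Wdr36, a processome subunit, with 3277, 3272, 3235 and 3284 reads without methionine, against 3484, 3319, 3348 and 3394 with it. The groups did not overlap, but the log2 fold change of -0.05 was not called (adjusted p = 0.168), and under total-read scaling the sign turned and the gene was called higher (0.11, adjusted p = 0.00448). Nat10, the acetyltransferase of small subunit RNA, had 3036, 3187, 3306 and 2970 reads without methionine, against 3057, 2890, 2735 and 2812 with it, which overlapped, and rose by 0.12 (adjusted p = 0.00371). FPKM values gave 0.07 for Nat10, not called in limma without (adjusted p = 0.651) or with a replicate block (0.283). Ltv1, which leaves the particle late in its maturation, rose by 0.16 with overlapping libraries.

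The large subunit factors held the largest folds, with 13 of 14 called higher, a median of 1.08 and 8 of the 13 members past 2-fold. Rrs1, an assembly factor needed early in large subunit formation (chromosome 1, 9545408 to 9547455, plus strand), had 4836, 4667, 4779 and 5072 reads without methionine, against 1126, 1082, 992 and 1108 with it. Its log2 fold change of 2.17 (SE 0.0373, adjusted p = 1.03e-31) was the highest of the 47. Noc3l rose by 1.52, Nop2, an RNA methyltransferase of the large subunit, by 1.44, and Nip7 by 1.17. Gnl3, the nucleolar GTPase nucleostemin, had 4761, 5007, 5016 and 5097 reads without methionine, against 2419, 2273, 2060 and 2121 with it, and rose by 1.17 (adjusted p = 3.48e-22). Ppan, a processing factor of the same subunit, had 2973, 3057, 2984 and 3095 reads without methionine, against 1547, 1590, 1465 and 1349 with it, and rose by 1.03 (adjusted p = 8.98e-22). In both genes all libraries without methionine lay above all libraries with it. Rrp1b, a nucleolar protein that also binds chromatin, had 4454, 4663, 4434 and 4580 reads without methionine, against 3129, 3174, 2964 and 2903 with it, and rose by 0.58 (adjusted p = 9.2e-18).

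The 3 proteins of the PeBoW complex (Pes1, Bop1 and Wdr12), which acts in large subunit processing, had the lowest fold changes among the large subunit factors. Bop1 rose by 0.29 and Pes1 by 0.07, where the libraries of Pes1 overlapped and its adjusted p was 0.0424. Wdr12 had 2420, 2438, 2459 and 2510 reads in methionine-free fresh medium, against 2658, 2636, 2611 and 2520 in complete fresh medium. The groups were next to each other without overlap. Wdr12 fell by 0.08 (SE 0.0371, adjusted p = 0.0344). That call was lost by edgeR (adjusted p = 0.104), by DESeq2 (0.0682), with FPKM values and without any of replicates 0, 1 and 2 of either medium (0.0559 to 0.0842). Its sign turned when scaled to total reads (0.07, adjusted p = 0.0567).

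Among the other nucleolar proteins, 4 rose and 1 fell by more than 2-fold. Nolc1, a chaperone of snoRNA particles, had 9198, 9680, 9822 and 9428 reads without methionine, against 5275, 5241, 4825 and 4780 with it, and rose by 0.92 (SE 0.0383, adjusted p = 3.79e-21). Mybbp1a rose by 0.76, the RNA helicase gene Ddx21 by 0.65 and Ncl, which encodes nucleolin, by 0.41. Npm1, which encodes the abundant nucleolar chaperone nucleophosmin (chromosome 11, 33152287 to 33163206, minus strand), went the other way. It had 32457, 34590, 34574 and 36889 reads in methionine-free fresh medium, against 75006, 71841, 74314 and 84414 in complete fresh medium. No libraries overlapped, and Npm1 fell by 1.14 (SE 0.0422, adjusted p = 1.55e-22). It was the only member past 2-fold lower, and its log2 fold change was -0.58 after quantile normalization. Quantile normalization moved the value of Ncl the other way, up by more than 1.5 times.

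**Figure D2:**
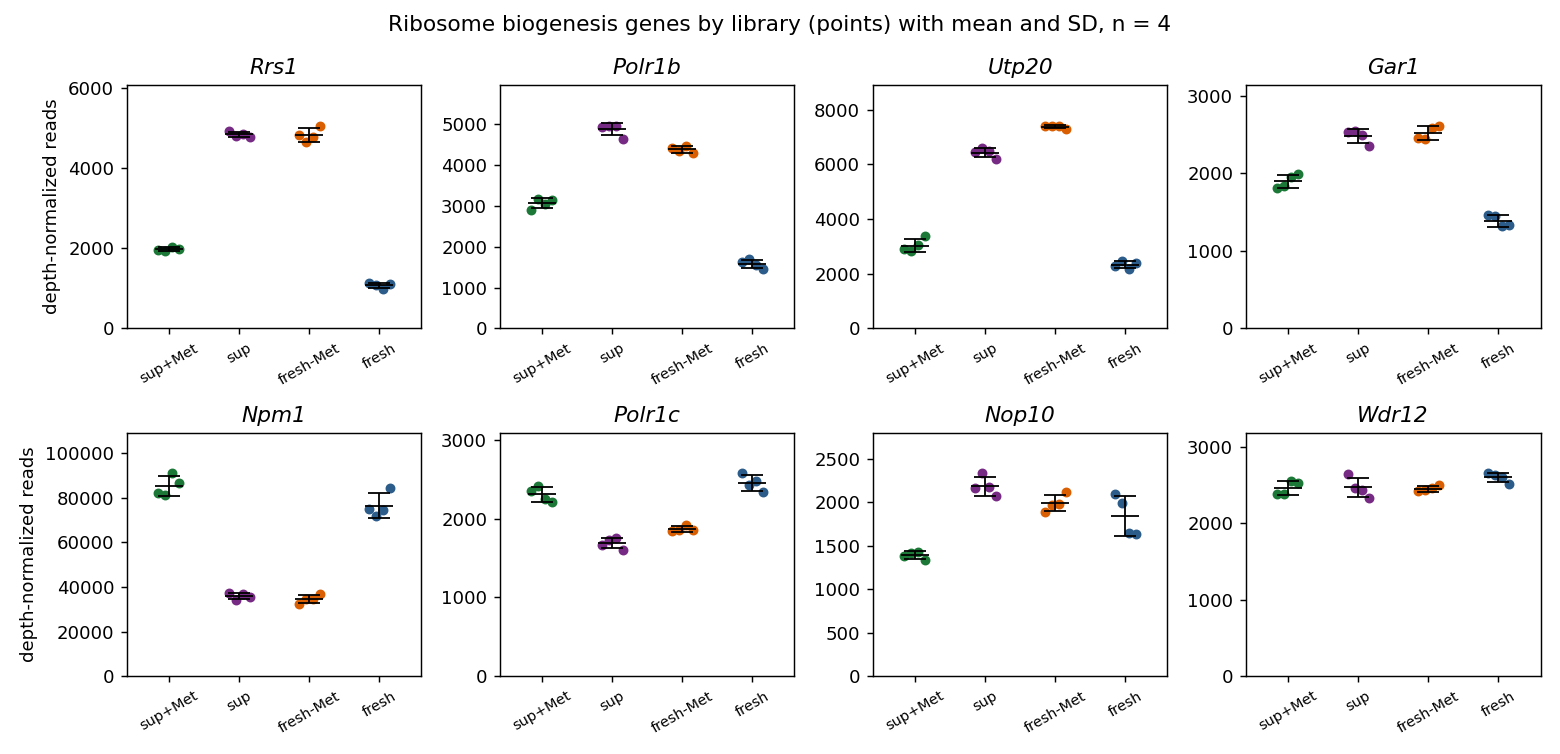
Depth-normalized reads (vertical axis, from 0) of 8 ribosome biogenesis genes in each of the 16 libraries (points), with the mean and SD of the 4 libraries of each medium. Along the horizontal axis, sup+Met is supplemented supernatant, sup is supernatant, fresh-Met is methionine-free fresh medium and fresh is complete fresh medium. Rrs1, Polr1b, Utp20 and Gar1 are lowest in complete fresh medium, Npm1 and Polr1c are lowest in the 2 media without added methionine, Nop10 is lowest in supplemented supernatant, and Wdr12 lies between 2337 and 2658 reads throughout.

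In melanoma supernatant the genes stood much as they did in methionine-free fresh medium. Against complete fresh medium, 41 members rose in supernatant, 3 fell (Npm1, Polr1c and Fbl) and 3 (Polr1e, Wdr36 and Wdr12) were not called, beside 43.0% of all genes called higher and 42.5% called lower. The median log2 fold change was 0.83 over the members and 0.00 over all genes. At least 2-fold higher were 13 members (14.2% of all genes) and at least 2-fold lower was 1 (13.4%). In 40 members every supernatant library lay above every complete one and in 3 below, against 40.1% and 39.9% of all genes. Rrs1 had 4931, 4819, 4848 and 4795 reads in supernatant, and its log2 fold change over complete fresh medium was 2.17 (SE 0.0373, adjusted p = 1.21e-31). Npm1 had 37321, 34183, 36972 and 35639 reads in supernatant, all below the lowest value in complete fresh medium, and fell by 1.08 (adjusted p = 6.8e-22). Fbl had 6677, 6428, 6630 and 6333 reads in supernatant, all below complete fresh medium, and fell by 0.16 (adjusted p = 9.72e-05), a call lost under total-read scaling (-0.02) and quantile normalization (-0.07). With FPKM values Fbl was at -0.20, not called in limma without (adjusted p = 0.542) or with a replicate block (0.0529). Polr1e (0.24) and Wdr36 (0.17) were called higher under total-read scaling, which also moved Nop10 (0.25, or 0.40) and Pes1 (0.15, or 0.30) by more than 1.5 times. Ncl rose by 0.42, or 0.94 after quantile normalization, and Npm1 was at -0.55 there. Wdr12 (-0.08, adjusted p = 0.0527) was called lower without supernatant replicate 0 (-0.11), complete replicate 3 (-0.09) or supplemented replicate 2 (adjusted p = 0.0496), and under quantile normalization (-0.09). Its sign turned under total-read scaling (0.07, adjusted p = 0.0790). This comparison and the one on methionine removal share the complete fresh medium libraries.

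Supernatant was then set against methionine-free fresh medium, which shares with it the missing methionine addition. Here 19 members were higher in supernatant, 2 were lower and 26 were not called, beside 14.0% of all genes called higher and 12.9% lower, with a median log2 fold change of 0.07. None of the 47 was past 2-fold in either direction, against 0.249% of all genes higher and 0.136% lower. In 21 members the supernatant libraries all lay above the methionine-free ones and in 2 all below, against 14.7% and 14.0% of all genes. Rrp1b had 5487, 5723, 5639 and 5498 reads in supernatant, against 4454, 4663, 4434 and 4580 in methionine-free fresh medium. This was the largest rise, at 0.30 (SE 0.0316, adjusted p = 4.53e-09), without overlap. Nat10 followed at 0.24 (adjusted p = 6.92e-06), with 3799, 3607, 3656 and 3690 reads in supernatant, above the 4 values given for methionine-free fresh medium. Lower in supernatant were Utp20, with 6435, 6583, 6483 and 6198 reads (fell by 0.20, adjusted p = 0.000292), and Polr1c, with 1664, 1733, 1757 and 1607 reads (fell by 0.14, adjusted p = 0.0054). In the FPKM table no member passed the threshold in limma in this comparison, with 1 member higher and 0 lower at an unadjusted p below 0.05. With a replicate block the FPKM table gave 3 higher and 1 lower. Both edgeR and DESeq2 on recovered reads called 19 higher and 2 lower. Noc2l (0.09, adjusted p = 0.0302) lost its call under total-read scaling (adjusted p = 0.0633).

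Adding methionine to the supernatant was followed by lower RNA of most of the genes. Of the 47, 31 fell, 9 rose and 7 were not called, beside 41.8% of all genes called lower and 41.8% called higher. The median log2 fold change was -0.24 over the members and -0.00 over all genes, and total-read scaling moved these to -0.37 and -0.14. Only Rrs1 and Utp20 fell by more than 2-fold (11.3% of all genes did) and only Npm1 rose by more than 2-fold (11.0%). In 30 members every supplemented library lay below every supernatant one and in 7 above, against 39.0% and 39.1% of all genes. Total-read scaling moved the values of 13 called members by more than 1.5 times without ending the call, among them Ppan (-0.28), Fbl (0.22), Ltv1 (0.23), Wdr36 (0.15), Nat10 (0.12) and Nop14 (0.07). Ncl was at -0.08, or -0.58 after quantile normalization.

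Rrs1 and Utp20, which had the highest fold changes on removal, were also the genes that fell most on addition, and their levels stayed above those in complete fresh medium. Rrs1 had 1960, 1924, 2044 and 1975 reads in supplemented supernatant, against the supernatant values of 4795 to 4931, and fell by 1.29 (SE 0.0373, adjusted p = 2.5e-25). Utp20 had 2894, 2817, 3035 and 3373 reads, against 6198 to 6583 in supernatant, and fell by 1.09 (adjusted p = 3.34e-22). Polr1b had 2894, 3159, 3037 and 3144 reads in supplemented supernatant, against 4927, 4968, 4965 and 4648 in supernatant, and fell by 0.67 (adjusted p = 6.54e-17). In none of these 3 genes did the libraries of the media overlap. Gar1 had 1812, 1836, 1958 and 1987 reads with the addition, against 2534, 2541, 2502 and 2352 in supernatant, and fell by 0.39 (adjusted p = 4.55e-10). Gnl3 had 3845, 4213, 4359 and 4620 reads with it, against 5305, 5028, 5235 and 5226 in supernatant, and fell by 0.29 (adjusted p = 4.26e-07). Nolc1 had 7625, 7594, 8723 and 8294 reads with it, against 9826, 10021, 9481 and 9704 in supernatant, and fell by 0.28 (adjusted p = 5.9e-08). These last 3 were again separate without overlap. Ppan had 3059, 3087, 3082 and 2909 reads with it, against 3378, 3420, 3203 and 3464 in supernatant, and fell by 0.15 (adjusted p = 0.00114). FPKM values gave -0.04 for Ppan, not called in limma without (adjusted p = 0.862) or with a replicate block (0.597).

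The box H/ACA genes all fell on addition, Nop10 most. Nop10 had 1382, 1423, 1429 and 1336 reads in supplemented supernatant, against 2163, 2336, 2176 and 2076 in supernatant, and fell by 0.65 (SE 0.0566, adjusted p = 2.15e-12). Nhp2 fell by 0.55, and Dkc1 fell by 0.09 with overlapping libraries.

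The box C/D genes did not fall. Fbl had 8078, 8150, 8478 and 8596 reads in supplemented supernatant, all above the 6333 to 6677 in supernatant, and rose by 0.35 (adjusted p = 9.46e-11). Nop56 had 14259, 14248, 15323 and 15119 reads with the addition, against 14753, 15478, 14101 and 13973 in supernatant. The media overlapped and the log2 fold change of 0.02 was not called (adjusted p = 0.665), while total-read scaling (-0.12) and quantile normalization (-0.19) turned its sign and called it lower. Nop58 rose by 0.16 with overlapping libraries, a call lost under total-read scaling (0.02) and quantile normalization (0.07).

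Among the other genes that rose on addition, Npm1 had 81958, 81192, 90970 and 86782 reads in supplemented supernatant, against 34183 to 37321 in supernatant, and rose by 1.24 (SE 0.0422, adjusted p = 2.31e-23), or 0.76 after quantile normalization. Polr1c had 2345, 2419, 2255 and 2212 reads, above the 1607 to 1757 in supernatant, and rose by 0.45 (adjusted p = 2.05e-12). These 2 genes mirrored in supernatant what was seen in fresh medium, with higher values in the supplemented or complete medium of each pair. Nat10 had 4378, 4244, 4628 and 4377 reads and rose by 0.26 (adjusted p = 1.89e-07), and Wdr36 had 4053, 3884, 4440 and 4370 reads, against 3442, 3487, 3463 and 3377 in supernatant, and rose by 0.28 (adjusted p = 8.97e-09). Ltv1 (0.37) and Nop14 (0.21), a small subunit processome factor, rose as well. Bop1 rose by 0.11 with overlapping libraries, a call lost under total-read scaling, where its sign turned (-0.03, adjusted p = 0.629), and under quantile normalization (0.06, adjusted p = 0.235).

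Of the 7 genes not called on addition, Rrp1b had 5295, 5348, 5445 and 5376 reads in supplemented supernatant, all below the 5487 to 5723 in supernatant, at -0.06 (adjusted p = 0.0876). Wdr12 had 2391, 2388, 2558 and 2526 reads, against 2647, 2464, 2440 and 2337 in supernatant, which overlapped. Rrp1b was called lower by DESeq2 (adjusted p = 0.0424) and under quantile normalization (-0.12). Utp18 (0.08, or -0.06) and Polr1e (0.08, or -0.05) changed sign without a call when scaled to total reads. Under that scaling Rrp1b (-0.19), Wdr12 (-0.13), Rrp9 (-0.14) and Pes1 (-0.15) were called lower.

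With methionine present in both media, the genes were still higher in the supplemented supernatant than in complete fresh medium. Of the 47, 44 rose, 2 fell (Nop10 and Polr1c) and Wdr12 was not called, beside 32.5% of all genes called higher and 32.5% lower. The median log2 fold change was 0.55 over the members and -0.00 over all genes, and 1 member was at least 2-fold higher and 0 were 2-fold lower, against 2.51% and 2.33% of all genes. In 41 members every supplemented library lay above every complete one and in 1 below, against 28.1% and 28.0% of all genes. All 17 small subunit factors, all 3 box C/D proteins and all 5 other nucleolar proteins rose.

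Ppan had the largest rise, at 1.03 (SE 0.0405, adjusted p = 1.04e-20), with 2909 to 3087 reads in supplemented supernatant, against 1349 to 1590 in complete fresh medium. Polr1b followed at 0.96 (adjusted p = 3.13e-20), Gnl3 at 0.94 and Nop2 at 0.90. Nop56 rose by 0.80 and Nop58 by 0.84, against 0.19 for Fbl. FPKM values also gave 0.19 for Fbl, not called in limma without (adjusted p = 0.729) or with a replicate block (0.0986). Wdr36, at 3884 to 4440 reads against 3319 to 3484, rose by 0.30 (adjusted p = 4.22e-09) with no overlap. Npm1 rose by 0.16 (adjusted p = 0.00142), with overlapping libraries. Polr1e rose by 0.17 (adjusted p = 0.00331).

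Wdr12 (-0.08, adjusted p = 0.0579) was called lower without complete replicate 3, supernatant replicate 0 or supplemented replicate 2 or 3 (adjusted p 0.0311 to 0.0445). The 2 genes called lower belong to different machines. Nop10, at 1336 to 1429 reads in supplemented supernatant against 1640 to 2094 in complete fresh medium, fell by 0.40 (adjusted p = 2.59e-07) with no overlap. Polr1c fell by 0.09 (adjusted p = 0.0450), with overlapping libraries, and this call was lost under total-read scaling (-0.07, adjusted p = 0.0923). It was also lost by edgeR (adjusted p = 0.0548), with no filter on low values (0.0536), in a fit on the 2 media alone (0.0642), and without supplemented replicate 2 or 3, complete replicate 0, 1 or 2, or methionine-free replicate 0 or 1 (0.0503 to 0.169). In the FPKM table the fall of neither passed the threshold in limma (1 member at an unadjusted p below 0.05), and with a replicate block Nop10 did.

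**Figure D3:**
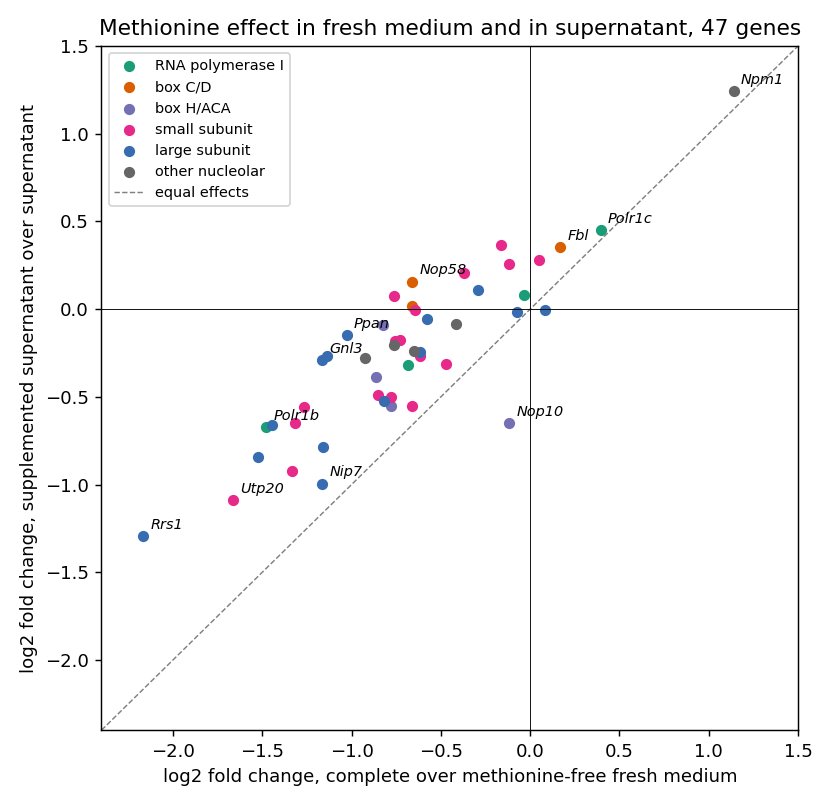
Effect of methionine on each of the 47 genes, as the log2 fold change of complete over methionine-free fresh medium (horizontal axis) and of supplemented supernatant over supernatant (vertical axis), coloured by role. The dashed line marks equal effects. Most points, among them Rrs1, Polr1b and Ppan, lie above the line, Npm1 and Polr1c lie near it, and Nop10 lies below it.

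The effect of methionine was compared directly between the media, as the effect in supernatant less the effect in fresh medium. For 40 members this difference was above 0, for 1 (Nop10) it was below 0 and 6 (Polr1c, Polr1e, Wdr3, Wdr12, Pes1 and Npm1) were not called, beside 27.6% of all genes called higher and 25.0% lower. The median difference was 0.41 over the members and 0.01 over all genes. For genes that methionine lowered in both media, a positive difference means that the fall was smaller in supernatant. Among the largest were Gnl3 (0.88, SE 0.0628, adjusted p = 1.65e-13), Ppan (0.88, adjusted p = 1.62e-14), Rrs1 (0.87, adjusted p = 2.37e-15) and Polr1b (0.81, adjusted p = 6.51e-14). For Nop56 the difference was 0.68, for Nolc1 0.64, for Utp20 0.57 and for Rrp1b 0.52. The difference was 0.47 for Gar1, 0.38 for Nat10, 0.23 for Wdr36 and 0.18 for Fbl. For Nop10 it was -0.53 (adjusted p = 1.16e-06), since methionine went with a fall of 0.65 in supernatant and with a value of -0.12 that was not called in fresh medium. With FPKM values, 8 members were above 0 and 0 below (22 and 0 at an unadjusted p below 0.05 in limma), or 33 and 1 with a replicate block. Calls lost there included Gnl3 (adjusted p = 0.122), Ppan (0.0956), Utp20 (0.0682) and Nop10 (0.323), which the block restored, and those of Gar1 (0.0706 with the block) and Fbl (0.444), which it did not. Wdr3 (0.11, adjusted p = 0.0735) was called above 0 under total-read scaling (0.14, adjusted p = 0.0213). For Npm1 the difference was 0.10 (adjusted p = 0.157), and 0.15 and called without complete replicate 3 (adjusted p = 0.0169), and for Polr1c 0.05 (adjusted p = 0.424).

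By role, the median difference in methionine effect was 0.24 for the RNA polymerase I subunits (2 of 4 called above 0), 0.68 for box C/D (3 of 3), 0.35 for box H/ACA (3 of 4, with Nop10 below 0), 0.53 for the small subunit factors (16 of 17), 0.46 for the large subunit factors (12 of 14) and 0.41 for the other nucleolar proteins (4 of 5). Across the 4 contrasts of removal, supernatant over complete fresh medium, addition and supplemented over complete, 30 of the 47 shared 1 pattern, which was higher, higher, lower and higher. Nop58, Nop14, Nat10, Ltv1 and Bop1 were higher in all 4. Nop56, Utp18, Rrp9, Pes1 and Rrp1b differed from the 30 by having no call on addition. Fbl and Npm1 shared the pattern lower, lower, higher and higher, and Polr1c, Wdr12, Nop10, Wdr36 and Polr1e each had one of their own. These contrasts share libraries, so the patterns are not independent tests.

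**Figure D4:**
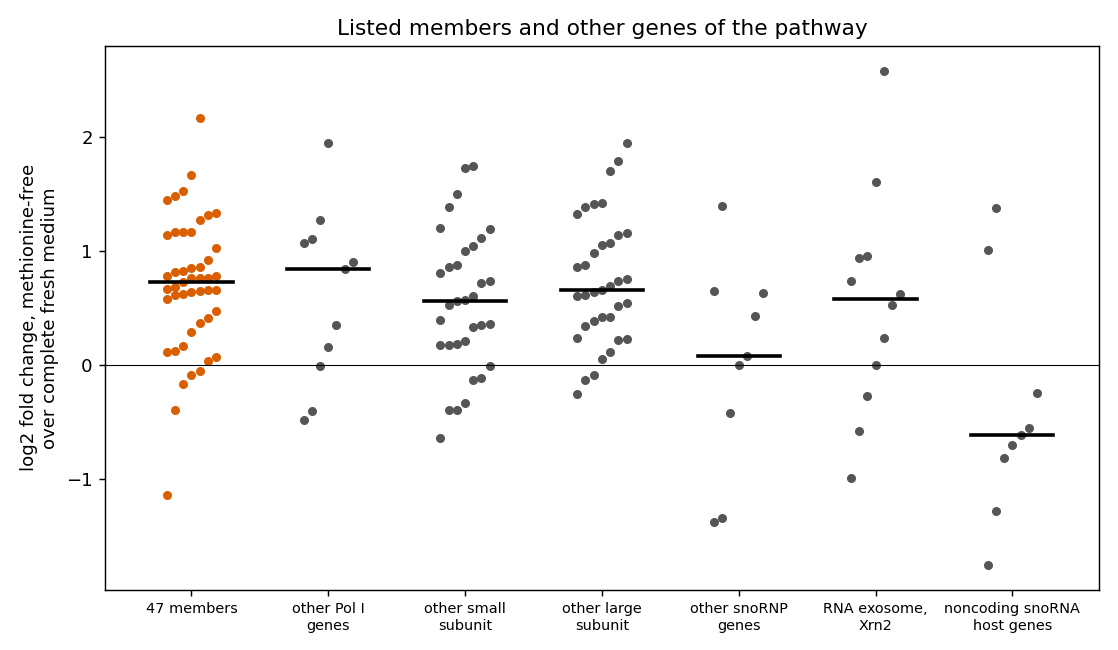
Log2 fold change of methionine-free over complete fresh medium (vertical axis) for the 47 listed genes and for other genes of the pathway by list (horizontal axis); each point is a gene and each bar the median. The medians are 0.73 for the 47 genes, 0.84 for other RNA polymerase I genes, 0.56 and 0.66 for other small and large subunit genes, 0.08 for other snoRNP genes, 0.58 for the exosome list and -0.62 for noncoding snoRNA hosts.

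A further 102 protein-coding genes of the pathway were listed, of which 100 were tested. On methionine removal 77 of them rose, 17 fell and 6 were not called, beside 43.3% of all genes called higher and 42.3% lower. Their median log2 fold change was 0.61. Of 11 other RNA polymerase I genes 8 rose and 2 fell. Cd3eap, which encodes the partner of the Polr1e protein, rose by 1.95, Twistnb, a stalk subunit, by 1.27, Ubtf, the upstream binding factor of ribosomal DNA, by 1.10 and Rrn3, the initiation factor, by 0.90. Taf1d, a subunit of the promoter selectivity factor, fell by 0.48 and Ttf1, the termination factor, fell by 0.41. Of 33 other small subunit genes 26 rose and 6 fell, with Bysl (1.75) and Pwp2 (1.73) at the top and Utp11l (-0.64) and Fcf1 (-0.40) at the bottom. Of 35 other large subunit genes 31 rose and 3 fell, with Mdn1, the giant remodelling ATPase, at 1.95, Rrp15 at 1.79, Gnl3l at -0.26 and Pak1ip1 at -0.14.

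The helpers of snoRNA particle assembly and the RNA exosome held genes that moved both ways. Of 9 tested snoRNP assembly genes 4 rose (44.4%) and 3 fell (33.3%), close to the 43.3% and 42.3% of all genes, with Znhit6 at 1.40, Nufip1 at 0.65, Pih1d1 at -1.37 and Ruvbl2 at -1.34. Pih1d1 and Ruvbl2 both belong to the R2TP chaperone complex that builds these particles. Pih1d1 averaged 548 ± 22.4 reads in methionine-free and 1422 ± 36.4 in complete fresh medium (SD, n = 4 each). The libraries of Ruvbl2 lay at 2378 to 2438 reads in methionine-free and at 5763 to 6422 in complete fresh medium. Of 12 genes for the RNA exosome and the exonuclease Xrn2, 8 rose and 3 fell. Exosc6 rose by 2.58 and Exosc4 by 1.61, while Exosc8 fell by 0.99 and Xrn2 fell by 0.58. Exosc6 averaged 2670 ± 148 reads without methionine and 446 ± 36.5 with it.

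In supernatant over complete fresh medium 77 of these 100 genes rose and 15 fell, beside 43.0% and 42.5% of all genes. On addition of methionine to supernatant, 65 fell, 23 rose and 12 were not called, at a median of -0.26, beside 41.8% of all genes called in each direction. In supplemented supernatant over complete fresh medium 83 rose and 7 fell, at a median of 0.33 (32.5% of all genes each way), and for the difference in methionine effect 78 were above 0 and 6 below, at a median of 0.31 (27.6% and 25.0% of all genes). In supernatant over methionine-free fresh medium 13 were higher, 3 lower and 84 not called, beside 14.0% and 12.9% of all genes, so the share called higher was near the background.

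Many snoRNAs are cut from introns, and 8 of the 47 genes (17.0%) carried snoRNA genes inside them in the GENCODE annotation, 23 snoRNA genes in all, against 167 of 10754 tested protein-coding genes (1.55%). These hosts were Nop56, Nop58, Wdr43, Gnl3, Ncl, Tsr1, Ppan and Dkc1. Their fold changes on methionine removal ran from 0.41 to 1.32 with a median of 0.93, against a median of 0.68 in the 39 members without a snoRNA gene. Noncoding snoRNA host genes, whose spliced RNA makes no listed protein, were set beside them. Of 16 listed, 9 were tested, of which 7 fell and 2 rose on removal, with a median of -0.62, beside 42.3% and 43.3% of all genes. Gas5 averaged 3590 ± 158 reads in methionine-free fresh medium and 6323 ± 189 in complete fresh medium (SD, n = 4 each), and fell by 0.82. Snhg3 fell by 1.76 and Snhg4 fell by 1.28, while Snhg12 rose by 1.38 and Snhg1 by 1.01. When methionine was added to supernatant 8 of the 9 rose and 1 fell, at a median of 1.01, beside 41.8% of all genes called in each direction. The 8 hosts among the members and the noncoding hosts therefore had medians of opposite sign on removal. Over all 167 tested protein-coding hosts, which include these 8, the median was only 0.18. The snoRNAs themselves were not analysed here.

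The E-box shown for Imp4, Nop2 and Utp18 was set beside the folds. The 9 members with CACGTG in the promoter window had a median log2 fold change of 1.27 on methionine removal (0.07 to 1.66), and the 32 with none in the window had a median of 0.67 (-0.39 to 1.53). The ranges overlapped over most of their length, with Pes1 (0.07) and Ltv1 (0.16) among the members with the motif. This is a description of 41 genes, with no test. Because the strand used in counting is not given in the sources used here, reads of antisense transcripts cannot be told apart, and 19 of the 47 members overlap an exon on the other strand, 14 of them an exon of a protein-coding gene.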

How the data were processed

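Gene expression was measured by RNA sequencing in 16 libraries. The submitters' processing notes name TopHat2 2.0.13 and Bowtie2 2.2.1, Cuffdiff 2.2.1 and Cufflinks, FastQC 0.11.3, and the genome builds GRCm38 and mm10. The counting tool and its strand setting are not given in the sources used here. The authors deposited a table of 1 depth-normalized signal per gene and library, and a table of FPKM (fragments scaled for transcript length and depth). In all 16 libraries the signals gave whole reads, to within 0.001 of a read, once multiplied by a single factor per library. Methionine-free fresh medium replicate 1, where 1 read equalled a signal of 0.989, was left out of the count tests as its factor is close to 1. Replicate 3 of that medium, at 1.02, was kept. The count tests, by edgeR and DESeq2, thus used 15 libraries.

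Values were analysed as log2(signal + 1) for genes with a mean of at least 10. All 16 libraries entered 1 fit of the 4 media in limma 3.58.1 under R 4.3.3, with its trend option, two-sided, with Benjamini-Hochberg adjustment over 12469 genes and a call at an adjusted p below 0.05. For FPKM, log2(value + 0.1) was used for genes with a mean of at least 0.5. Every fold change is on these scales, which understate the change of low genes. The model was tested on simulated reads in which few genes changed, unlike in these data. That test therefore does not bear on the choice of scaling. Alternatives were scaling to total reads, quantile normalization, pseudocounts of 0.5 and 10, other filters on low values, FPKM, a replicate block, fits on the compared groups only, omission of each library, and edgeR 4.0.16 and DESeq2 1.42.0 on recovered reads. Same-numbered libraries in different media had residual correlations of -0.07 to 0.07 over 24 pairs in the main table so no block was used. In the FPKM table they were 0.09 to 0.48, so FPKM counts were also computed with a replicate block.

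The members, role groups and other lists were chosen with earlier results of these data known. Values per library are given for the member with the highest and the lowest fold change on methionine removal in each role group, and for the 2 highest and 2 lowest members for supernatant over methionine-free fresh medium, supplemented supernatant over complete fresh medium and the difference in methionine effect. Members called lower on removal are named, as are the 2 genes of largest change in each direction in the other pathway lists. Other genes were chosen after their values were seen. Positions are from GENCODE M21 on GRCm38 and promoters from RefSeq on GRCm38.p6.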

Additional observations from a re-analysis of the deposited data

Results flagged for a closer look

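In 3 of the 64 sets of 4 libraries made by the 16 genes given per library and the 4 media, 1 library lay far from the rest by Dixon's criterion at the 95% level, and chance gives about 1 in 20. Polr1b in supernatant had its lowest value, 4648, in replicate 3, against 4927 to 4968 in the others. Polr1c in methionine-free fresh medium had its highest value, 1916, in replicate 2, against 1843 to 1854. Ppan in supplemented supernatant had its lowest value, 2909, in replicate 3, against 3059 to 3087.

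The effect of methionine on the log2 scale was compared between supernatant and fresh medium by the test of the difference itself in limma. The difference was called above 0 for 40 members, beside 27.6% of all genes called above 0 and 25.0% below. Among the genes given per library the difference was 0.88 for Ppan and for Gnl3, 0.87 for Rrs1, 0.81 for Polr1b, 0.68 for Nop56, 0.64 for Nolc1, 0.57 for Utp20, 0.52 for Rrp1b, 0.47 for Gar1, 0.38 for Nat10, 0.23 for Wdr36 and 0.18 for Fbl. It was below 0 for Nop10, at -0.53.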

How the results depend on the processing

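The counts of members called higher or lower were within 1.5 times the values given, except as follows. On removal, 2 members were lower under total-read scaling and 2 in the FPKM table, against 4. In supplemented supernatant over complete fresh medium, the 2 lower members became 1 under total-read scaling, with no filter on low values, in a fit on the compared groups only, by edgeR and in FPKM with a replicate block, and 0 in FPKM without it (1 at an unadjusted p below 0.05 in limma). In the FPKM table without the block, addition gave 4 higher and 15 lower (9 and 31), supplemented over complete gave 27 higher (44), supernatant over methionine-free fresh medium gave 0 and 0 (19 and 2; 1 and 0 at an unadjusted p below 0.05) and the difference in methionine effect gave 8 above and 0 below (40 and 1; 22 and 0 unadjusted). With the block, supernatant over methionine-free fresh medium gave 3 and 1 in FPKM. The cause was not tested. The members' median moved to 0.89 on removal, 0.98 in supernatant over complete fresh medium and -0.37 on addition under total-read scaling, and to -0.34 on addition under quantile normalization.

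Leaving out each library in turn gave 39 to 41 higher and 3 to 4 lower on removal, 41 to 42 and 3 to 4 in supernatant over complete fresh medium, 8 to 10 and 29 to 31 on addition, 44 and 1 to 3 in supplemented over complete, 15 to 20 and 2 in supernatant over methionine-free fresh medium, and 38 to 40 and 1 for the difference. The replicate block on the main table left these counts within 1.5 times and changed 1 of 96 calls of the genes given per library (Nop10 on removal, adjusted p = 0.0450). By depth-normalized values 5 of 16 libraries resembled their own number most, and 13 of 16 in FPKM. Over all members and both scalings, and apart from fold changes within 0.02 of 0 in both fits, signs turned for Wdr36 on removal (0.11) and Wdr12 on removal (0.0748) and in supernatant over complete fresh medium (0.07) under total-read scaling, and for Nop56 on addition under total-read scaling (-0.12) and quantile normalization (-0.19). They also turned on addition for Bop1 (-0.03), Utp18 (-0.06) and Polr1e (-0.05) under total-read scaling and for Rrp9 (0.02) under quantile normalization, which turned Polr1e on removal (-0.02) and Ncl in supernatant over methionine-free fresh medium (-0.06) as well. Depth was 25.8 to 42.3 M reads, and between libraries of the same medium the mean chi-square per gene was 2.65 to 9.42, where pure counting noise would give 1.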
